A study of Mus musculus with 18 samples.

Results

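Cdkn1a, Gadd45a, Gadd45b, Gadd45g, Ddit4 and Ddit3 are genes of growth arrest and stress, and their RNA was measured in mouse retina after an injection of a corticosteroid or vehicle into the eye. They were followed through the 10 probe sets (groups of short oligonucleotides on the array that read 1 transcript together) whose platform annotation names one of these symbols and no other. These are 10 of 34945 probe sets that name 1 gene, and 6 of 18193 genes. Gadd45b had 3 probe sets, Cdkn1a and Ddit3 had 2 each, and the other genes had 1 each.

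Cells that meet damage, nutrient loss or misfolded protein can stop the cell cycle and lower protein synthesis, and these genes act at different steps of that response. Cdkn1a encodes p21, an inhibitor of cyclin-dependent kinases and a textbook target of p53. The Gadd45 genes encode small stress sensors that bind p21, PCNA, Cdk1 and the kinase Map3k4, and in mouse brain Gadd45b is known as an activity-induced gene linked to DNA demethylation. Ddit4 (REDD1) restrains mTORC1 through Tsc1 and Tsc2 and is known as a glucocorticoid-induced gene in muscle and lymphoid cells. Ddit3 (CHOP) is a transcription factor of the endoplasmic reticulum and integrated stress responses, and in mouse retina it is known from ganglion cell injury.

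The groups were DEX (dexamethasone), TAA (triamcinolone, by the series title) and BSS (the vehicle control) at day 30 and the same treatments at day 7 after a single intravitreal injection, with 3 biological replicates on 3 arrays in each of the 6 groups. All animals were 2-month-old male C57BL6/J mice, and retinal RNA was measured in bulk, so every value is a mean over all retinal cell types. Both drugs are synthetic fluorinated glucocorticoids, and their structures differ at the D ring. The labels give no dose, so whether the doses matched is unknown. No uninjected retina was analysed here, and an effect of the injection itself is shared by all groups.

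Each value is on a log2 scale and set against the median of its own probe set across all 18 arrays. A value of 0 is therefore the middle of the arrays, and no value is a level of expression, so neither the labelled tissue nor the level of a gene could be checked. Arrays of the same group differed widely. Over all probe sets, replicate 2 of TAA at day 30 (SD 0.350) and replicate 2 of TAA at day 7 (SD 0.338) were widest, and replicate 3 of TAA at day 7 (SD 0.147) was narrowest. The Actb controls, which compare the 3' with the 5' end of a transcript, gave a difference of -0.459 on TAA day 30 replicate 2, while it lay between -0.167 and 0.137 elsewhere. The Gapdh controls gave -0.086 on that array, inside the range of the other arrays, from -0.159 to 0.284. In the centred values 5 arrays correlated below 0, on average, with the others of their group. They were BSS day 7 replicate 1 (-0.19), DEX day 30 replicate 3 (-0.080), TAA day 7 replicate 1 (-0.073) and replicate 2 of TAA at both days (-0.0086 and -0.0023). Precision is limited throughout by having 3 arrays a group.

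Among these genes the highest values of the series were those of Cdkn1a and Gadd45b on a TAA array at day 7, while Ddit4 was highest on a TAA array at day 7 and on DEX arrays at day 30, and Gadd45g stayed within a narrow range on all arrays. Each difference between groups is a log2 value, written with its limma standard error after ± (n = 3 arrays a group), and the range in parentheses beside it is the 95% interval. The standard error pools the spread of all 6 groups, so it can be too small where the groups compared vary more than the others. Over 11 comparisons the 10 probe sets gave 110 differences, of which 49 were larger than their standard error and 61 were not. In limma's test adjusted by Benjamini-Hochberg over all 34945 probe sets, 0 of the 110 passed 0.05, the smallest adjusted p was 0.157, and 13 had an unadjusted p under 0.05. Over all probe sets, the share with an unadjusted p under 0.05 ran from 3.41% to 18.7% between the 11 comparisons. The arrays were few and their spread was wide, so a difference that did not pass is not shown to be absent. Where less RNA is seen in whole retina, fewer cells of a type and less RNA per cell cannot be told apart.

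**Figure D1:**
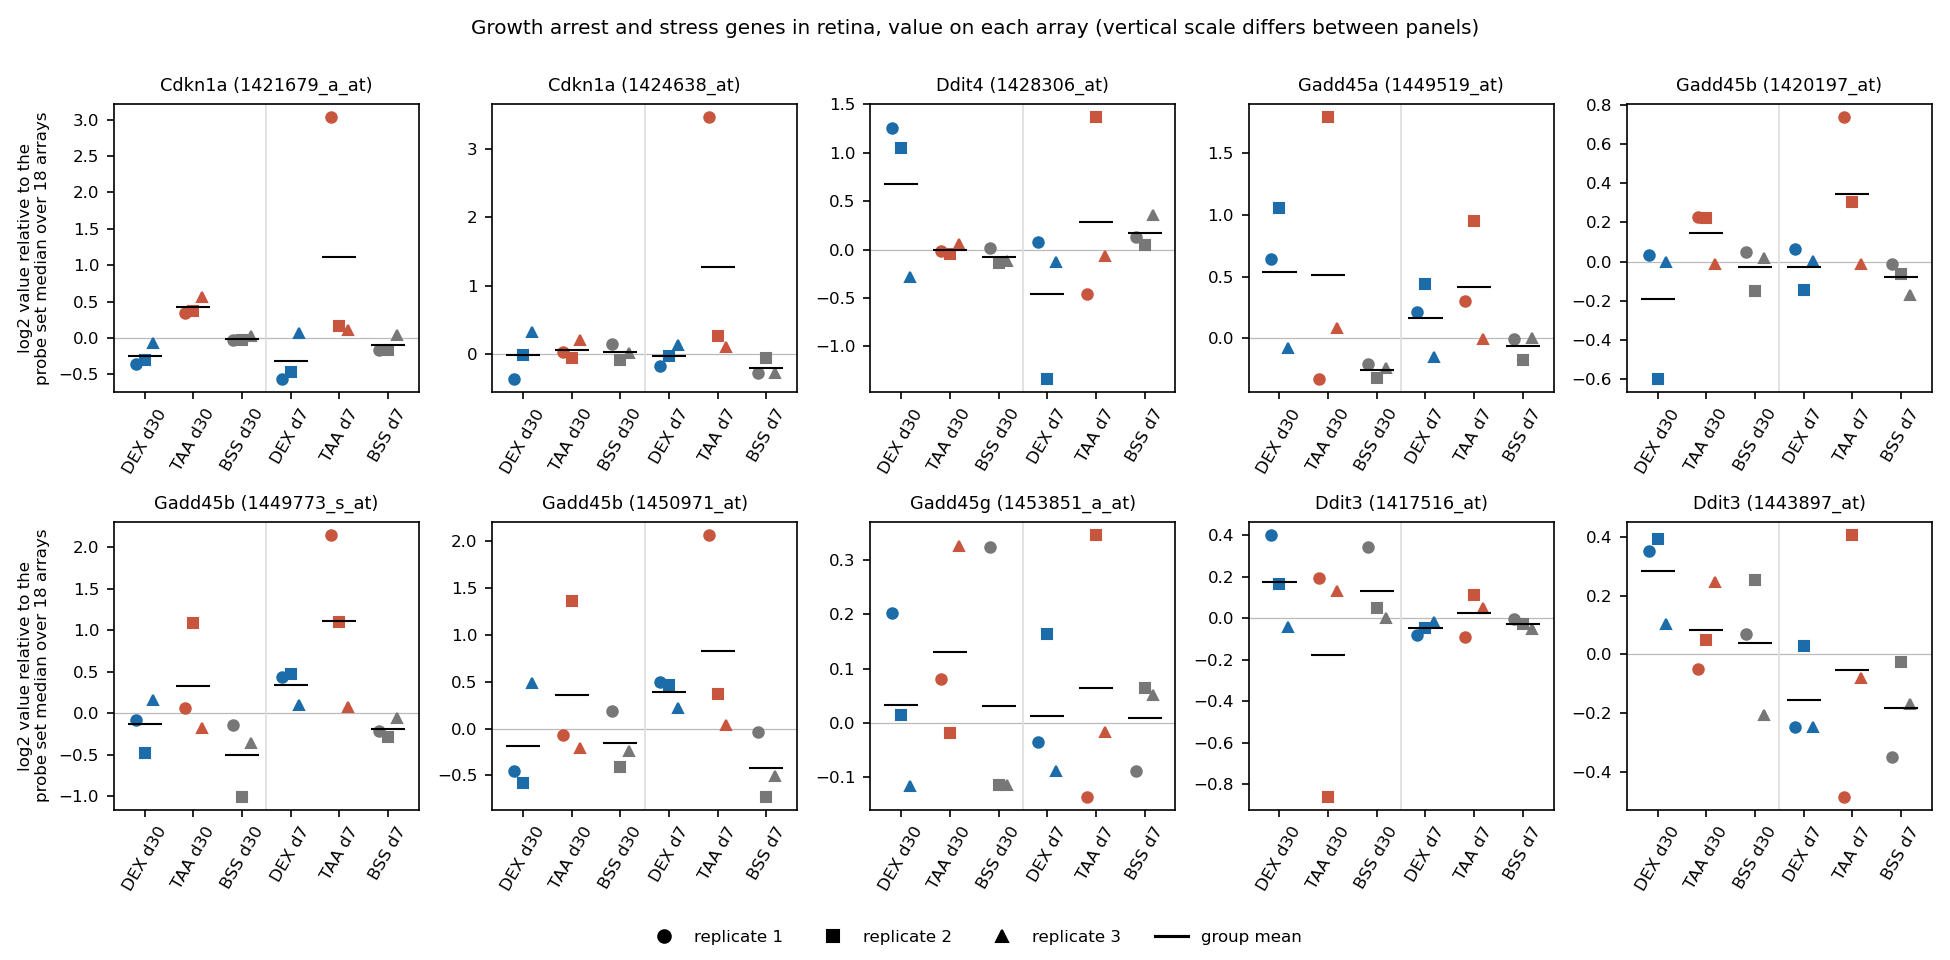
Value of each of the 10 probe sets on each of the 18 arrays, as log2 relative to the probe set's median over the arrays, by group (DEX, TAA and BSS at day 30, then at day 7). Points are arrays, the shape gives the replicate number and black lines are group means. Both Cdkn1a probe sets lie above 3 on TAA day 7 replicate 1 and under 0.6 on every other array.

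The sizes of the differences varied with the comparison. For TAA against BSS at day 7, all 10 probe sets were higher in TAA, with a median difference of 0.45, against a median size of 0.09 over all probe sets. There, 5 of 10 had an unadjusted p under 0.05 (3.83% of all probe sets did, and 0.00286% passed after adjustment) and 4 of 10 had all TAA arrays above all BSS arrays (4.48% of all probe sets did). These 4 are both Cdkn1a probe sets and 2 of the Gadd45b probe sets, so they stand for 2 genes. For DEX against BSS at day 7 the median size was 0.20 (0.08 over all), 0 of 10 had an unadjusted p under 0.05 (3.41% of all) and 2 of 10, both of Gadd45b, had all DEX arrays above all BSS arrays (7.35% of all). For DEX against TAA at day 7 all 10 were lower in DEX, 3 had an unadjusted p under 0.05 (6.28% of all) and 1 had all DEX arrays below all TAA arrays (5.63% of all). These 3 comparisons share arrays and are not independent of each other.

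At day 30 no more than 1 of the 10 met any of these counts. For DEX against BSS, 0 of 10 had an unadjusted p under 0.05 (11.8% of all), 1 had all DEX arrays above all BSS arrays (5.26% of all) and 1 had all below (9.28% of all). For TAA against BSS, 1 of 10 had an unadjusted p under 0.05 (7.03% of all) and 1 had all TAA arrays above all BSS arrays (5.88% of all). For DEX against TAA, 0 of 10 had an unadjusted p under 0.05 (16.9% of all) and 1 had all DEX arrays below all TAA arrays (8.49% of all). In none of these 3 comparisons did any of the 34945 probe sets pass after adjustment, which is a percentage of 0.

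**Figure D2:**
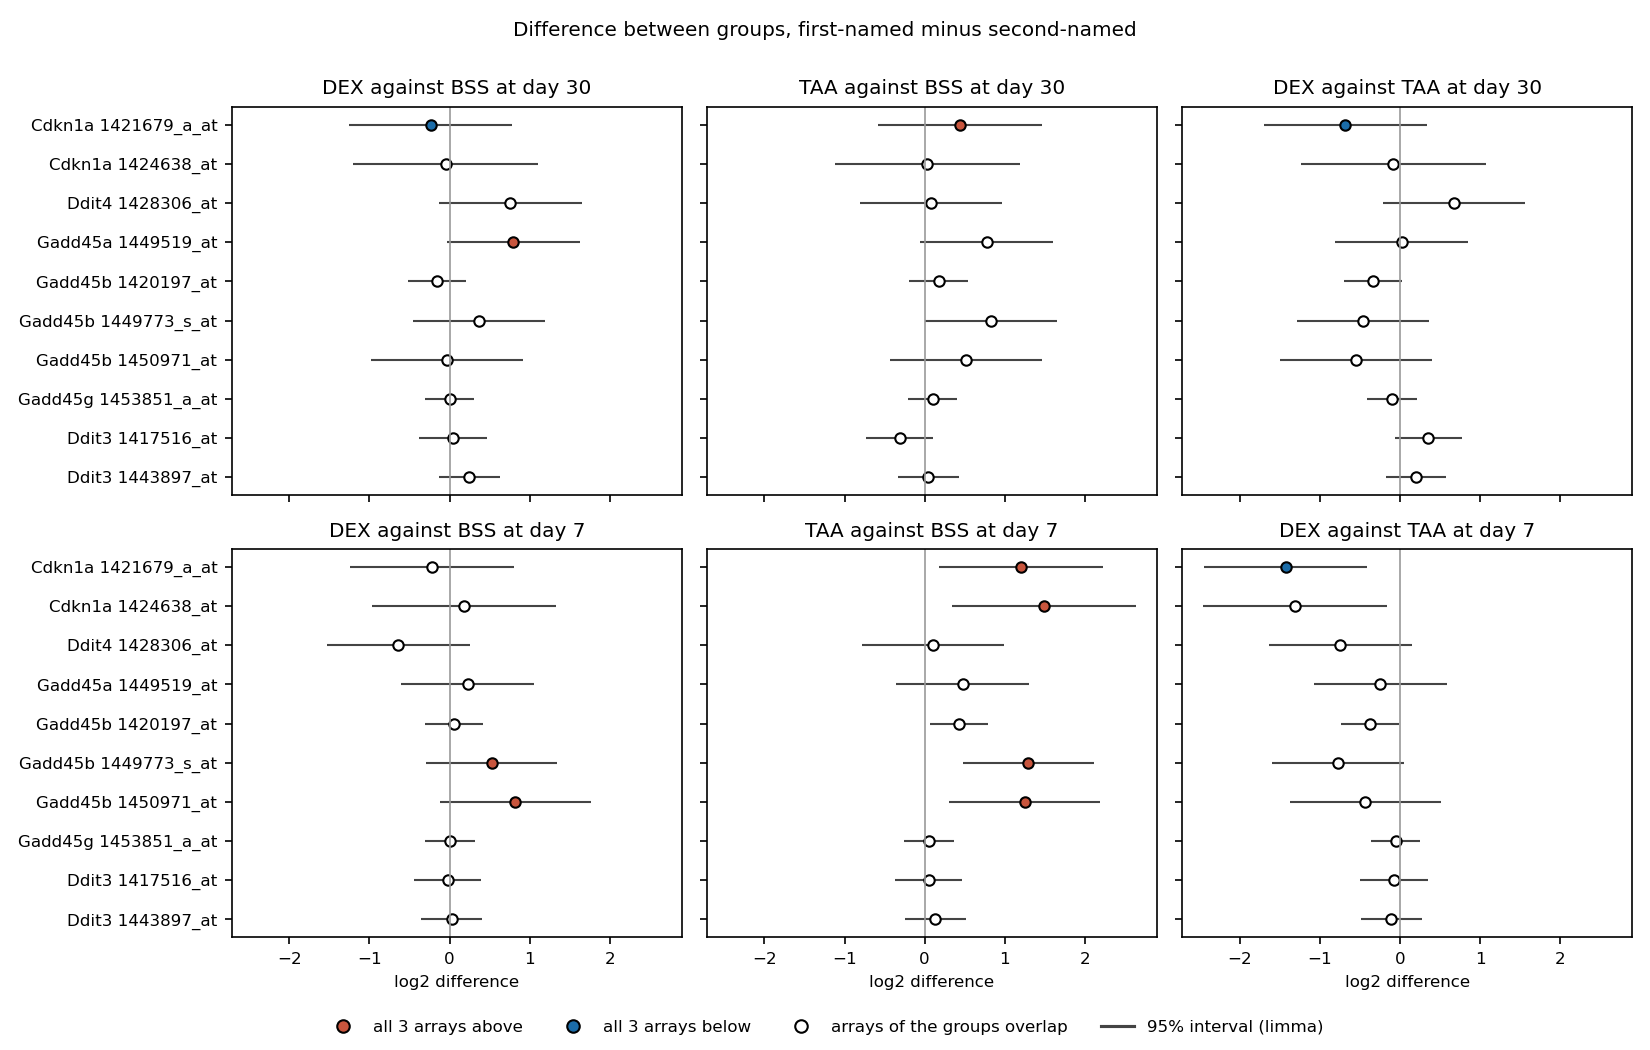
Difference in log2 value for the 10 probe sets in 6 comparisons, first-named group minus second-named, with 95% intervals from limma. The intervals use the spread over all 6 groups, not that of the groups compared alone. Filled points mark groups whose 3 arrays all lie above (red) or below (blue) the other group. Intervals clear of 0 are those of Cdkn1a and Gadd45b for TAA against BSS at day 7, both Cdkn1a probe sets and Gadd45b 1420197_at for DEX against TAA at day 7, and Gadd45b 1449773_s_at for TAA against BSS at day 30.

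The kinase inhibitor Cdkn1a lies on chromosome 17 (chr17:29090979-29100722 in GRCm38.p6). The 250 bases before its more upstream start in the RefSeq promoter table are shown because they hold 2 separate matches to the p53 decamer. The matches are in capitals, 73 to 64 and 51 to 42 bases before the start. Only exact matches are marked, and whether p53 binds them together was not tested. This decamer, the repeated unit of the p53 consensus, was searched on both strands and stood in 2 of the 7 windows of these genes and in 7.13% of all 32851 windows.
Cdkn1a (chr17:29090729-29090978, plus strand): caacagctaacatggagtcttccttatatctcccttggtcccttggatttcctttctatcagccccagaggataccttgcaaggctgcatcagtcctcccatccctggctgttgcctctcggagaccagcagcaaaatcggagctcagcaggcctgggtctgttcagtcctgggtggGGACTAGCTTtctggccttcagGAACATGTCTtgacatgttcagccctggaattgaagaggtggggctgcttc
The window before the more downstream start of Cdkn1a held no such decamer. The palindrome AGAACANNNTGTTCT of the glucocorticoid receptor and its unit AGAACA, searched on both strands, were in 0 of the 7 windows, against 0.00913% and 16.1% of all windows. These letters are thus not in these windows, which says nothing about sites elsewhere.

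On 1424638_at, Cdkn1a had 3.48, 0.26 and 0.10 on the TAA arrays at day 7, against -0.29, -0.06 and -0.28 on the BSS arrays. Its other probe set, 1421679_a_at, had 3.04, 0.16 and 0.11 on the TAA arrays at day 7 and -0.17, -0.16 and 0.04 on the BSS arrays. All 3 TAA arrays lay above all 3 BSS arrays on both, but replicate 1 stood far above the other 2. On that array these were the 3rd and 5th highest of the 34945 values. The TAA minus BSS difference at day 7 was 1.49 ± 0.55 on 1424638_at (95% interval 0.34 to 2.64, 2.81-fold, unadjusted p = 0.0144, adjusted p = 0.9998 by limma). It was 1.20 ± 0.48 on 1421679_a_at (0.18 to 2.23, unadjusted p = 0.0234). Without TAA day 7 replicate 1 the differences were 0.39 and 0.24. The standard errors and intervals use the spread over all 6 groups. Within TAA at day 7 the SD was 1.90 on 1424638_at and 1.68 on 1421679_a_at, against 0.13 and 0.12 in BSS.

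DEX at day 7 gave no such high array. On 1421679_a_at the DEX arrays at day 7 had -0.56, -0.47 and 0.07, all below the 3 TAA arrays, and on 1424638_at they had -0.18, -0.03 and 0.13. The DEX minus TAA difference at day 7 was -1.43 ± 0.48 (-2.45 to -0.40, unadjusted p = 0.009, adjusted p = 0.709 by limma) on 1421679_a_at. On 1424638_at it was -1.31 ± 0.55 (-2.46 to -0.15, adjusted p = 0.782). Without TAA day 7 replicate 1 these were -0.46 and -0.21, so the interval of the difference between the drugs rests on that array.

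At day 30 the probe sets of Cdkn1a differed from each other. On 1421679_a_at the DEX arrays had -0.36, -0.31 and -0.08, the TAA arrays 0.35, 0.37 and 0.57, and the BSS arrays -0.04, -0.03 and 0.03. DEX arrays lay below BSS arrays and TAA arrays above them, without overlap. The DEX minus TAA difference at day 30 was -0.68 ± 0.48 (-1.70 to 0.34, adjusted p = 0.51 by limma), and it ranged from -0.77 to -0.61 when each array was left out in turn. The standard error comes from the probe set's spread over all 6 groups, which includes the array at 3.04. On 1424638_at the groups overlapped at day 30, with -0.37, -0.02 and 0.31 on DEX arrays, 0.02, -0.06 and 0.21 on TAA arrays and 0.15, -0.09 and 0.02 on BSS arrays. The correlation of the 2 probe sets over the 18 arrays was 0.94, and 0.47 without TAA day 7 replicate 1. In the order of group means on 1421679_a_at (TAA day 7, TAA day 30, BSS day 30, BSS day 7, DEX day 30, DEX day 7), only TAA day 30 and BSS day 30 did not overlap among neighbours. Within TAA, day 30 minus day 7 was -1.22 ± 0.55 on 1424638_at (unadjusted p = 0.0389, adjusted p = 0.381 by limma) and -0.12 without TAA day 7 replicate 1.

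Gadd45b, which encodes a stress sensor upstream of the p38 and JNK kinases, lies on chromosome 10 (chr10:80930091-80932204). The 250 bases before its start are shown because Gadd45b was the gene whose drug arrays at day 7 were most often above the vehicle arrays. The capitals mark a TATAAA motif 46 to 41 bases before the start and CCAAT boxes 139 to 135 and 100 to 96 bases before it. On both strands, TATAAA stood in 12.4% and CCAAT in 33.8% of all windows, against 2 and 5 of these 7.
Gadd45b (chr10:80929841-80930090, plus strand): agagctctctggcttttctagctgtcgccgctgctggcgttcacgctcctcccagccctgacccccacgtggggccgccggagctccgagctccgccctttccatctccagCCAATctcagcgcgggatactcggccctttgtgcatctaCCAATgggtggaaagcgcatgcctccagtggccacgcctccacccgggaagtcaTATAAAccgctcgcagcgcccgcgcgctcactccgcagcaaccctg

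On 1449773_s_at Gadd45b had 0.44, 0.47 and 0.10 on the DEX arrays at day 7 and 2.15, 1.10 and 0.07 on the TAA arrays, against -0.21, -0.29 and -0.06 on the BSS arrays. All 6 drug arrays lay above all BSS arrays. On 1450971_at the DEX arrays had 0.50, 0.47 and 0.23, the TAA arrays 2.07, 0.37 and 0.04, and the BSS arrays -0.04, -0.73 and -0.50. TAA day 7 replicate 1 was again the highest array, and DEX arrays were closer together than TAA arrays. Both drugs thus had all 3 arrays above all BSS arrays on both probe sets at day 7, a count made after the values were seen. The same held for 361 of the 34945 probe sets at day 7 (1.03%), and at day 30 it held for 0.982% of all and for none of these genes. A probe set name ending in s_at marks probes that may also match other transcripts, so 1449773_s_at is the less certain of the 2.

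The TAA minus BSS difference at day 7 was 1.29 ± 0.39 on 1449773_s_at (0.47 to 2.12, 2.45-fold), which had the smallest p of these genes in any comparison (limma, unadjusted p = 0.00398, adjusted p = 0.9998). It was 1.25 ± 0.45 on 1450971_at (0.30 to 2.19, unadjusted p = 0.0125). Without TAA day 7 replicate 1 these were 0.77 and 0.63. Within TAA at day 7 the SD was 1.04 on 1449773_s_at and 1.09 on 1450971_at, against 0.12 and 0.35 in BSS. The DEX minus BSS difference at day 7 was smaller but rested less on 1 array. It was 0.52 ± 0.39 on 1449773_s_at (-0.30 to 1.35, unadjusted p = 0.196) and 0.82 ± 0.45 on 1450971_at (-0.13 to 1.76, unadjusted p = 0.0849), and ranged from 0.46 to 0.64 and from 0.67 to 1.01 with each array left out. DEX minus TAA at day 7 was -0.77 ± 0.39 on 1449773_s_at (-1.59 to 0.05, adjusted p = 0.812), and -0.25 without TAA day 7 replicate 1.

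The third probe set of Gadd45b, 1420197_at, varied less. Its DEX arrays at day 7 had 0.06, -0.15 and 0.00, its TAA arrays 0.74, 0.31 and -0.01, and its BSS arrays -0.01, -0.06 and -0.17. The TAA and BSS arrays touched at -0.01. TAA minus BSS was 0.43 ± 0.17 (0.06 to 0.79, unadjusted p = 0.0242, adjusted p = 0.9998 by limma), and 0.23 without TAA day 7 replicate 1. DEX minus BSS, at 0.05, was within its standard error. DEX minus TAA was -0.37 ± 0.17 (unadjusted p = 0.0456), and -0.17 without that array. Over the 18 arrays the correlation of 1449773_s_at with 1450971_at was 0.89 (0.80 without TAA day 7 replicate 1), and 1420197_at correlated with them at 0.79 and 0.75.

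At day 30 the Gadd45b groups overlapped. On 1449773_s_at the DEX arrays had -0.08, -0.49 and 0.16, the TAA arrays 0.06, 1.09 and -0.19, and the BSS arrays -0.14, -1.01 and -0.37. On 1450971_at the DEX arrays had -0.46, -0.58 and 0.49, the TAA arrays -0.07, 1.37 and -0.21, and the BSS arrays 0.19, -0.41 and -0.24. A single TAA array, replicate 2, was the highest at day 30 on both, and it is the array of widest spread. TAA minus BSS at day 30 was 0.83 ± 0.39 on 1449773_s_at (0.01 to 1.65, unadjusted p = 0.0486, adjusted p = 0.707 by limma) and 0.52 ± 0.45 on 1450971_at. Without TAA day 30 replicate 2 these were 0.44 and 0.01. In DEX, day 30 minus day 7 was -0.47 ± 0.39 and -0.58 ± 0.45, with adjusted p = 0.558 and 0.525. In TAA it was -0.78 ± 0.39 on 1449773_s_at (adjusted p = 0.423), and -0.26 without TAA day 7 replicate 1.

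Reactive glia are the retinal cells that raise Gfap and acute phase genes after injury. The mean of a list of their genes correlated with Gadd45b over the arrays, as did the means of other lists to different degrees. The mean of 20 reactive gliosis genes was 0.55, 0.60 and 0.37 on the DEX arrays at day 7 and 0.50, 1.79 and -0.04 on the TAA arrays, against -0.12, -0.48 and -0.15 on the BSS arrays. At day 30 it was -0.72, -0.63 and 0.23 on DEX, -0.14, 0.39 and -0.49 on TAA and -0.06, -0.74 and 0.25 on BSS arrays. Of the 20 genes, 20 were higher in DEX and 18 in TAA than in BSS at day 7, with medians of 0.66 and 0.91, against 48.4% and 49.8% of all genes. None passed after adjustment, and 5 and 11 had an unadjusted p under 0.05, against 4.23% and 4.28% of all genes. For DEX at day 30 against day 7, 2 of the 20 fell, Gfap by 1.79 on the log2 scale (SE 0.40, adjusted p = 0.0348 by limma) and the cytokine signalling factor Stat3 by 0.87 on that scale (SE 0.21, adjusted p = 0.041). Both passed without DEX day 30 replicate 3 and neither without any other DEX array. Neither passed in the fit of the compared arrays alone (limma, adjusted p = 0.0596 for each). Over the 18 arrays the list's mean correlated with Gadd45b at 0.69 on 1449773_s_at and 0.58 on 1450971_at (Spearman's rho 0.81 and 0.83), and at 0.81 and 0.65 without TAA day 7 replicate 1. With Gadd45b 1420197_at the gliosis mean correlated at 0.52. With Cdkn1a it correlated at 0.18 on 1421679_a_at and 0.26 on 1424638_at, and at 0.04 and 0.41 without TAA day 7 replicate 1. The microglia and leukocyte mean correlated with Gadd45b 1449773_s_at and 1450971_at at 0.20 and 0.17, and at 0.57 and 0.52 without that array. For the mean of Gadd45 partners and stress kinases these were 0.48 and 0.49, and 0.55 and 0.57. The arrays share treatment, day and RNA preparation, so these are descriptions with no test, and the part of glial RNA in the Gadd45b differences was not tested. The mean of 12 rod genes correlated with the same Gadd45b probe sets at -0.43 and -0.37 (-0.84 and -0.73 without TAA day 7 replicate 1). Spearman's rho was -0.51 and -0.42. With Gadd45a the rod mean correlated at -0.66 (rho -0.36). The mean of 13 pigment epithelium genes correlated with the Gadd45b probe sets at -0.46 and -0.53. The rod mean was lowest on TAA day 30 replicate 2 (-0.25) and TAA day 7 replicate 2 (-0.22), and from -0.07 to 0.06 on the other arrays. Gadd45a was highest on TAA day 30 replicate 2, at 1.79.

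**Figure D3:**
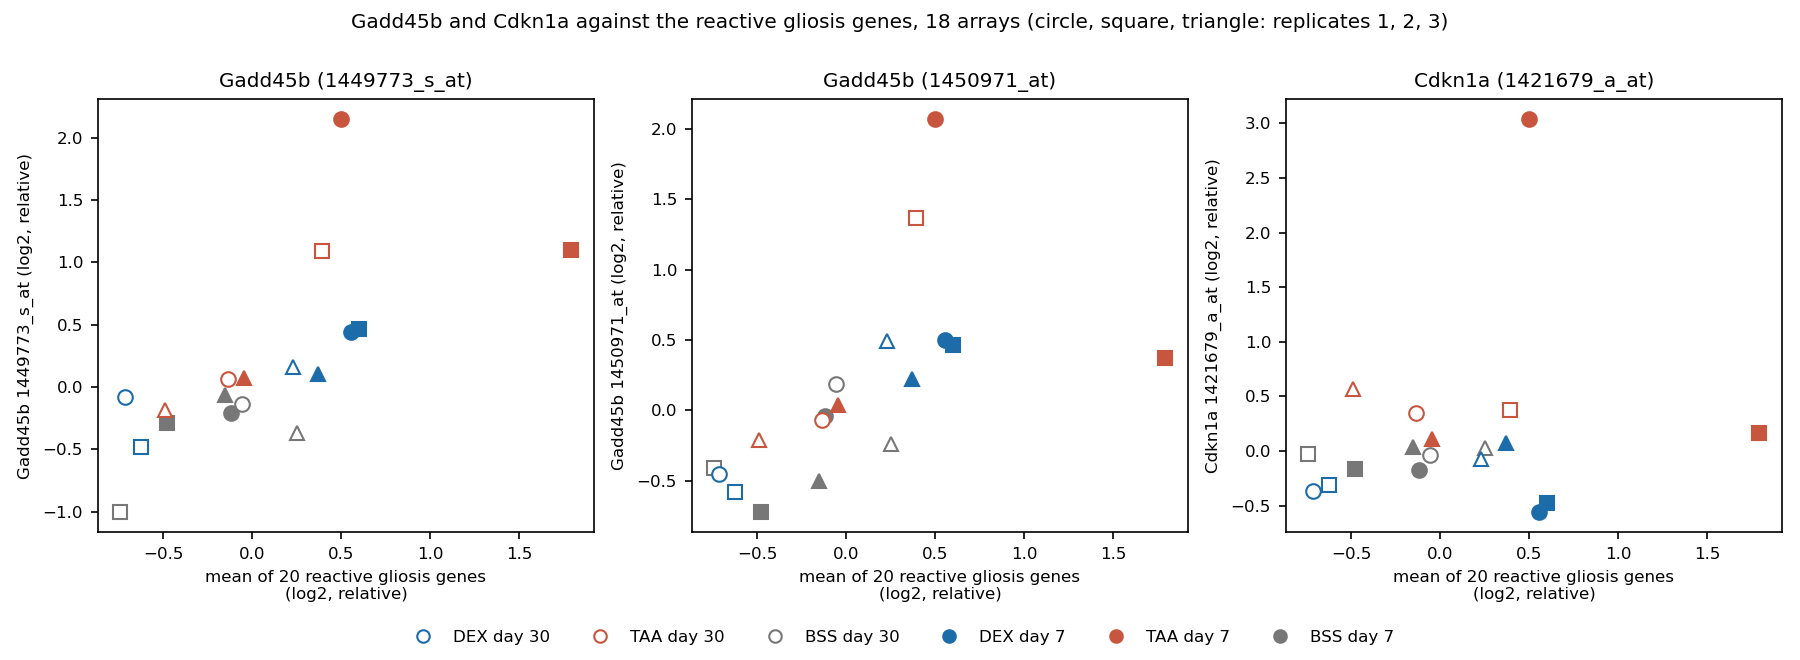
Gadd45b (both wide-ranging probe sets) and Cdkn1a (1421679_a_at) against the mean of 20 reactive gliosis genes, in relative log2 values, 1 point per array. Open symbols are day 30, filled symbols day 7, and colours give the treatment. Gadd45b is higher where the gliosis mean is higher (r of 0.69 and 0.58), while the high Cdkn1a array has a gliosis mean of 0.50.

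Gadd45a, the founding member of the family and a p53 target, lies on chromosome 6 (chr6:67035096-67037407). The 250 bases before its start are shown because they hold the octamer ATTTGCAT on either strand, 97 to 90 and 70 to 63 bases before the start, with a CCAAT box between them and a p53 decamer match 40 to 31 bases before the start, all in capitals. The octamer stood in 2 of the 7 windows (Gadd45a and Gadd45g) and in 1.60% of all windows.
Gadd45a (chr6:67037408-67037657, minus strand): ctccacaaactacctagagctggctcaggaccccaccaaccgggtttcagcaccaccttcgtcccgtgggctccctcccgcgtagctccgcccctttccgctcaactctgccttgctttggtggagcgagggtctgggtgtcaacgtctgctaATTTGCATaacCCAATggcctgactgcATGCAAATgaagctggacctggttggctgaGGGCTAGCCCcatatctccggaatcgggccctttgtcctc

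On 1449519_at Gadd45a had 0.65, 1.05 and -0.08 on the DEX arrays at day 30 and -0.33, 1.79 and 0.08 on the TAA arrays, against -0.21, -0.32 and -0.24 on the BSS arrays. All DEX arrays lay above all BSS arrays, and TAA arrays lay on both sides of them. DEX minus BSS at day 30 was 0.80 ± 0.39 (-0.03 to 1.62, 1.74-fold, unadjusted p = 0.0585, adjusted p = 0.434 by limma), and from 0.54 to 1.11 with each array left out. TAA minus BSS was 0.77 ± 0.39 (-0.06 to 1.60, adjusted p = 0.736), and 0.13 without TAA day 30 replicate 2, where 1.79 was the 24th highest value of that array. With limma's array weights, which gave DEX day 30 replicate 3 a weight of 0.27, DEX minus BSS was 0.94 with adjusted p = 0.0153, while 14.9% of all probe sets passed in that fit. Over the 15 alternatives its adjusted p ran from 0.0153 to 0.953. With the replicate number as a block shared by the arrays of all groups, its unadjusted p was 0.0275 and its adjusted p 0.347 by limma. That fit is not a paired test of DEX and BSS at day 30 alone.

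At day 7 Gadd45a had 0.22, 0.44 and -0.15 on DEX arrays and 0.30, 0.95 and -0.01 on TAA arrays, against -0.01, -0.18 and 0.01 on BSS arrays. The arrays of both drugs overlapped those of BSS. TAA minus BSS was 0.47 ± 0.39 (unadjusted p = 0.245), and 0.21 without TAA day 7 replicate 2. In the order of group means (DEX day 30, TAA day 30, TAA day 7, DEX day 7, BSS day 7, BSS day 30) all 4 drug groups stood above both BSS groups, and of neighbouring groups only the 2 BSS groups did not overlap. Its interquartile range over the 18 arrays was at the 98.6th percentile of all probe sets.

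Gadd45g, the family member linked to differentiation and growth arrest, lies on chromosome 13 (chr13:51846675-51848475) and had the narrowest range of the 10 probe sets. Over the 18 arrays it ran from -0.14 to 0.35 (16.5th percentile of all probe sets), while its interquartile range was at the 64.2nd percentile. DEX arrays had 0.20, 0.02 and -0.12 at day 30 and -0.04, 0.16 and -0.09 at day 7. TAA arrays had 0.08, -0.02 and 0.33 at day 30 and -0.14, 0.35 and -0.02 at day 7. BSS arrays had 0.32, -0.11 and -0.11 at day 30 and -0.09, 0.06 and 0.05 at day 7. The groups overlapped in every comparison, and no difference between groups was larger than its standard error (0.15 for each pair of groups). The 95% intervals for drug minus BSS lay within -0.31 and 0.41 at both days.

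Ddit4, the brake on mTORC1, lies on chromosome 10 (chr10:59949675-59951770). The 250 bases before its start are shown for comparison with Cdkn1a, since Ddit4 is also known as a steroid target. The capitals mark CCAAT boxes read on the opposite strand (ATTGG), 170 to 166 and 137 to 133 bases before the start, and the window held no match to the glucocorticoid receptor palindrome or its unit.
Ddit4 (chr10:59951771-59952020, minus strand): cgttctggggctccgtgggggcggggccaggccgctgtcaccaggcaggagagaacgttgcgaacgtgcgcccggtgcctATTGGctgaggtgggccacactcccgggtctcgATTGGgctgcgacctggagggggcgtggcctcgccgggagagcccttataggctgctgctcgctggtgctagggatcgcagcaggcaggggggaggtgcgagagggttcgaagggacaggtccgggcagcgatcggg

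Ddit4 differed between DEX arrays of the same group more than between treatments. On 1428306_at it had 1.26, 1.05 and -0.28 on the DEX arrays at day 30 and -0.01, -0.05 and 0.06 on the TAA arrays, against 0.01, -0.14 and -0.12 on the BSS arrays. Replicates 1 and 2 of DEX lay above every other array at day 30, and replicate 3 lay below every one of them. DEX minus BSS at day 30 was 0.76 ± 0.42 (-0.13 to 1.65, 1.69-fold, unadjusted p = 0.0902, adjusted p = 0.48 by limma), and DEX minus TAA was 0.68 ± 0.42 (-0.21 to 1.57, adjusted p = 0.441). Without DEX day 30 replicate 3, DEX minus BSS was 1.24 (adjusted p = 0.0812), and without replicate 1 it was 0.47. Its adjusted p over the alternatives ran from 0.0285, with array weights, to 0.953. With the replicate number as a block, DEX minus BSS had an unadjusted p of 0.105 and an adjusted p of 0.482 by limma.

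At day 7 Ddit4 had 0.08, -1.33 and -0.13 on DEX arrays and -0.46, 1.37 and -0.07 on TAA arrays, against 0.13, 0.04 and 0.36 on BSS arrays. The lowest and the highest Ddit4 values of the series were thus a DEX and a TAA array of day 7, and all groups overlapped. DEX minus BSS was -0.64 ± 0.42 (-1.53 to 0.25, unadjusted p = 0.149) and -0.20 without DEX day 7 replicate 2. DEX minus TAA was -0.74 ± 0.42 (adjusted p = 0.839) and -0.20 without TAA day 7 replicate 2.

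The comparison of days within DEX asks how the retina differed late and early after the same drug. For DEX at day 30 against day 7, 2% of all probe sets passed (700 of 34945) and 18.7% had an unadjusted p under 0.05, against 0 and 2 of the 10. That 700 rested on all 6 arrays, since leaving out 1 of them gave from 2 to 2590. Ddit4 was higher at day 30 by 1.14 ± 0.42 (0.25 to 2.03, 2.20-fold, unadjusted p = 0.0151, adjusted p = 0.157 by limma). Without DEX day 30 replicate 3 it was 1.62 with adjusted p = 0.0259 (7.41% of all probe sets passed), and without DEX day 7 replicate 2 it was 0.70. The DEX minus BSS difference of Ddit4 was 0.76 at day 30 and -0.64 at day 7, opposite in sign, and the change between days was 1.40 ± 0.60 (0.14 to 2.66, unadjusted p = 0.0317, adjusted p = 0.562 by limma), in a test of the difference itself where 8.45% of all probe sets had an unadjusted p under 0.05 and 0% passed. With array weights these values were 1.49 (adjusted p = 0.00337) and 1.75 (adjusted p = 0.0193), both past the threshold, in fits where 21% and 9.47% of all probe sets passed. Over the alternatives the adjusted p ran from 0.00337 to 0.479 for the first and from 0.0193 to 0.933 for the second.

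Ddit3, the endoplasmic reticulum stress factor, lies on chromosome 10 (chr10:127290793-127296291). On 1417516_at it had 0.40, 0.16 and -0.04 on DEX arrays at day 30 and 0.19, -0.86 and 0.13 on TAA arrays, against 0.34, 0.05 and 0.00 on BSS arrays. The low value was TAA day 30 replicate 2, the array whose Actb 3' minus 5' value was lowest. Its Gapdh value of -0.086 was within the range of the other arrays, and the part of RNA quality was not tested. TAA minus BSS at day 30 was -0.31 ± 0.20 (-0.73 to 0.11, unadjusted p = 0.137) and 0.03 without that array, so its direction turned. DEX minus TAA was 0.35 ± 0.20 (-0.07 to 0.77, adjusted p = 0.385). At day 7 this probe set stayed between -0.09 and 0.11 on all 9 arrays, with DEX at -0.08, -0.05 and -0.02, TAA at -0.09, 0.11 and 0.05 and BSS at 0.00, -0.03 and -0.05.

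The other Ddit3 probe set, 1443897_at, correlated with the first at 0.29 over the 18 arrays (Spearman's rho 0.54). This second probe set stood at 0.05 on TAA day 30 replicate 2, where the first stood at -0.86. It had 0.35, 0.39 and 0.10 on DEX arrays, -0.05, 0.05 and 0.25 on TAA arrays and 0.07, 0.26 and -0.21 on BSS arrays at day 30. At day 7 it had -0.25, 0.03 and -0.25 on DEX, -0.49, 0.41 and -0.08 on TAA and -0.35, -0.03 and -0.17 on BSS arrays. All DEX arrays at day 30 lay above all DEX arrays at day 7 (7.85% of all probe sets did), by 0.44 ± 0.18 (0.06 to 0.82, unadjusted p = 0.0259, adjusted p = 0.199 by limma). The difference ranged from 0.38 to 0.53 with each array left out, and it was 0.50 with array weights (adjusted p = 0.0193, the lowest of the alternatives, whose highest was 0.464), in the fit where 21% of all probe sets passed. BSS was also higher at day 30 than at day 7 on this probe set, by 0.22 ± 0.18 (adjusted p = 0.817), and DEX minus BSS at day 30 was 0.24 ± 0.18 (adjusted p = 0.598).

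**Figure D4:**
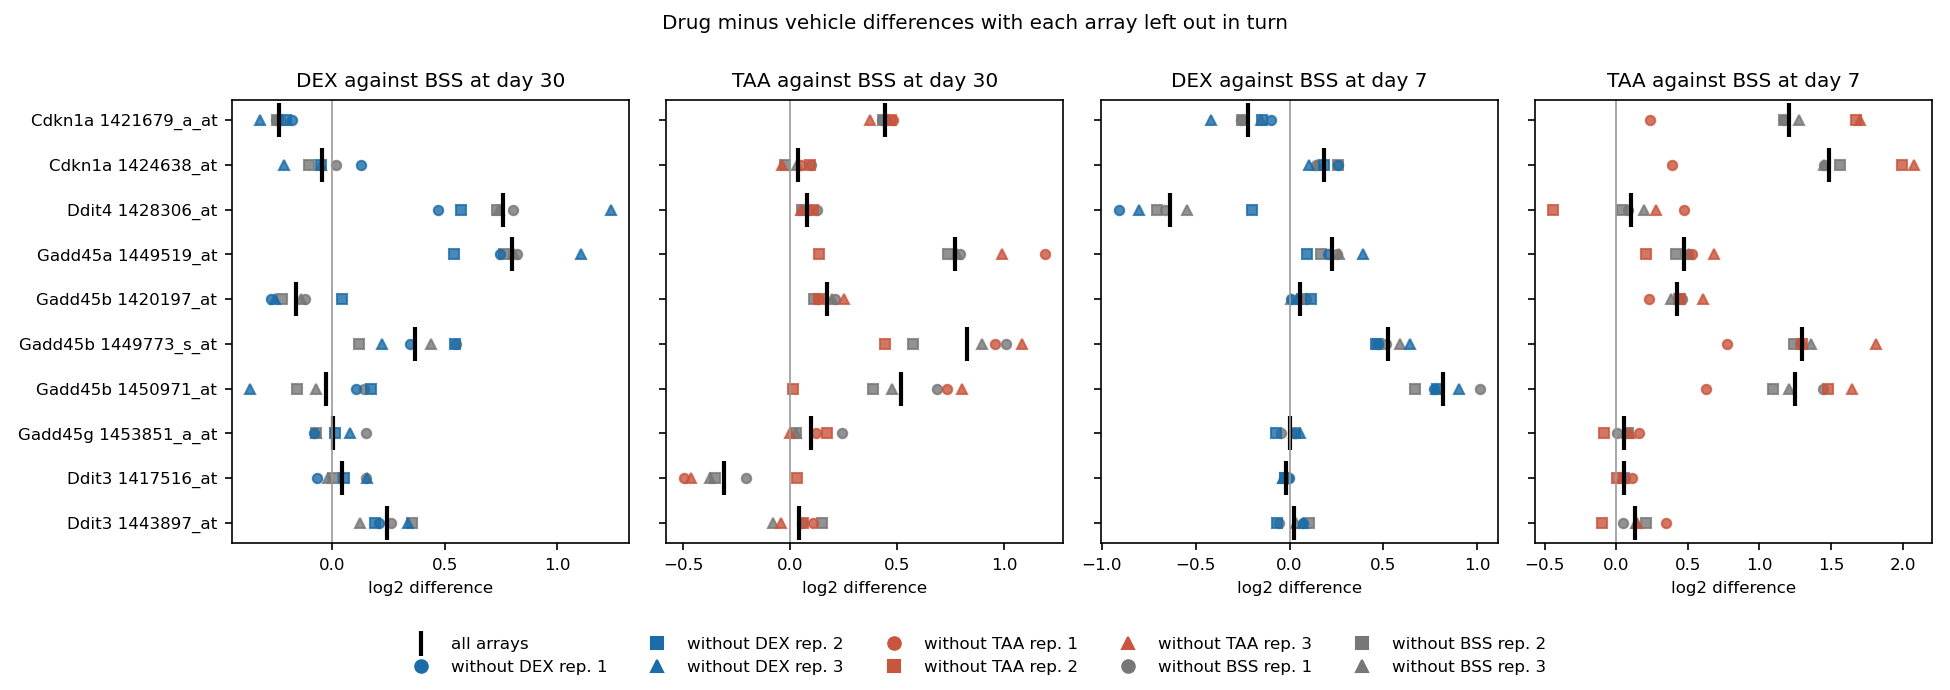
Drug minus vehicle difference in log2 value for each probe set with all arrays (black bars) and with each array left out in turn (symbols, coloured by the group of the array left out). For TAA against BSS at day 7, the values of Cdkn1a are 0.24 and 0.39 without TAA replicate 1, while for DEX against BSS at day 7 those of Gadd45b stay from 0.46 to 1.01 on 1449773_s_at and 1450971_at and from 0.01 to 0.11 on 1420197_at.

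In the vehicle alone, day 30 against day 7 gave small differences, from -0.32 to 0.27. No probe set of these genes had an unadjusted p under 0.05 (7.1% of all did, and 0.0143% passed). All BSS arrays at day 30 lay below those at day 7 for Ddit4 and Gadd45a (12% of all probe sets did) and above them for Ddit3 1417516_at (9.61% of all). In TAA, day 30 against day 7 had 1 of 10 with an unadjusted p under 0.05 (12.4% of all, 0% after adjustment), Cdkn1a 1424638_at. The change of the TAA effect between days had none (5.83% of all, 0% after adjustment), with -1.45 ± 0.77 for Cdkn1a 1424638_at (adjusted p = 0.858).

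Genes around these in their pathways were described through lists in which 1 probe set stood for each gene. Of 25 listed p53 response genes, 22 were measured, and 0 rose or fell after adjustment in any drug comparison. At day 7, 13 of 22 were higher in DEX than in BSS and 10 of 22 in TAA, with median differences of 0.00 and -0.03, against 48.4% and 49.8% of all genes. The death receptor gene Fas was 0.36 ± 0.15 higher in TAA than in BSS (unadjusted p = 0.0231), and Sesn1, a sestrin that restrains mTORC1, 0.56 ± 0.24 (unadjusted p = 0.0322). Sesn2, the sestrin of the stress response, was 0.34 ± 0.15 higher in DEX than in BSS at day 7 and -0.41 ± 0.15 in the same comparison at day 30 (unadjusted p = 0.0391 and 0.016). At day 30, 7 of 22 were higher in DEX and 8 of 22 in TAA than in BSS, against 42.1% and 44.2% of all genes. The antiproliferative gene Btg2 stood at -0.28 ± 0.12 for DEX minus BSS (unadjusted p = 0.0288).

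The integrated and endoplasmic reticulum stress genes around Ddit3 (30 of 31 measured) had 0 that passed in any drug comparison. Of the 30, 18 were higher in DEX and 21 in TAA than in BSS at day 7, with medians of 0.06 and 0.09, against 48.4% and 49.8% of all genes. At day 30, 15 of 30 were higher in DEX and 15 in TAA, against 42.1% and 44.2% of all genes. In TAA at day 7 the serine synthesis gene Psat1 stood at 0.41 ± 0.14 (unadjusted p = 0.00724 by limma) and Xbp1, a transcription factor of the unfolded protein response, at 0.71 ± 0.31 (unadjusted p = 0.0329), both over BSS. Atf6, another such factor, stood at 0.54 ± 0.23 for DEX minus BSS at day 7 (unadjusted p = 0.0312). Hsp90b1, a chaperone of the endoplasmic reticulum, was 1.10 ± 0.27 higher in DEX than in TAA at day 30 (unadjusted p = 0.000759, adjusted p = 0.099 by limma), and Dnajc3, a co-chaperone of the same compartment, 0.91 ± 0.24 (adjusted p = 0.106). For TAA minus BSS at day 30 Hsp90b1 stood at -0.82 ± 0.27 (unadjusted p = 0.00706). Of the 30, 6 had an unadjusted p under 0.05 higher in DEX than in TAA at day 30 and 6 lower, against 17.4% of all genes. For DEX at day 30 against day 7, 1 of the 30 fell, the seryl-tRNA synthetase gene Sars, by 0.40 on the log2 scale (SE 0.10, adjusted p = 0.0485), and it passed without DEX day 30 replicate 3 but not without any other DEX array. Its call was also lost with quantile normalization (adjusted p = 0.0629), in the fit of the compared arrays alone (0.097) and among the probe sets of wider spread (0.0686).

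Among 16 genes of cyclin-dependent kinase inhibitors and G1 cyclins, 0 passed in any drug comparison. Cdkn1b, which encodes the inhibitor p27, was 1.14 ± 0.42 higher in DEX than in BSS at day 7 (unadjusted p = 0.0142). Cdk4, the kinase partner of D cyclins, was lower in DEX at day 30, with -0.76 ± 0.14 against TAA (unadjusted p = 5.61e-05, adjusted p = 0.0769 by limma) and -0.49 ± 0.14 against BSS (unadjusted p = 0.00314). Ccne2, which encodes cyclin E2, was 0.86 ± 0.22 higher in DEX than in BSS at day 30 (unadjusted p = 0.00102, adjusted p = 0.357). For DEX at day 30 against day 7, Cdk4 fell by 0.64 on the log2 scale (SE 0.14, adjusted p = 0.0344) and was the single call of that list. Without DEX day 30 replicate 3, Ccne2 for DEX against BSS (adjusted p = 0.023) and Cdk4 for DEX against TAA (adjusted p = 0.017) passed at day 30, where 5.31% and 8.01% of all probe sets did. The fall of Cdk4 between days did not pass without DEX day 7 replicate 1 or 2 or DEX day 30 replicate 1 or 2. Its call was also lost with quantile normalization (limma, adjusted p = 0.0525) and in the fit of the compared arrays alone (0.0852).

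The partners of the Gadd45 proteins and the stress kinases (12 of 15 measured) had 0 that passed, and 9 and 10 of the 12 were higher in DEX and in TAA than in BSS at day 7, against 48.4% and 49.8% of all genes. Mapk9, which encodes JNK2, stood at 0.35 ± 0.16 for DEX minus BSS (unadjusted p = 0.0369 by limma), and the Gadd45 partner Cdk1 at 0.37 ± 0.17 for TAA minus BSS (unadjusted p = 0.0402). Of the mTOR pathway genes around Ddit4 (14 of 15 measured), 0 passed in any drug comparison. At day 30, 10 of 14 were higher in DEX than in BSS (42.1% of all genes were), with a median of 0.12 (-0.04 over all genes). For DEX minus BSS, Txnip, a gene of redox balance, stood at -0.29 ± 0.12 (unadjusted p = 0.0275 by limma) and Tsc1, a gene through which Ddit4 acts, at 0.32 ± 0.13 (unadjusted p = 0.0288). Txnip stood at -0.42 ± 0.12 for DEX minus TAA at day 30 (adjusted p = 0.115), and Hif1a, the hypoxia factor known to induce Ddit4, at 0.79 ± 0.33 for DEX minus BSS at day 7 (unadjusted p = 0.0294).

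The genes most like each member over the 18 arrays were sought among 16309 named genes, as a description. For Cdkn1a (1421679_a_at) they were Ip6k2 (r = 0.95), Selenbp1 (0.90) and Tc2n (0.88). Without TAA day 7 replicate 1 these were 0.78, 0.49 and 0.09, so the last 2 shared mainly that array. For Gadd45b (1450971_at) the most like were Lrrc8c (0.85), Gnb5 (0.84) and Fkbp5 (0.83), and 0.71, 0.67 and 0.69 without that array. For Gadd45a they were Bach1 (0.92), Dusp6 (0.90) and Gca (0.90), which kept r of 0.80 or more without TAA day 30 replicate 2. For Ddit4 they were Sympk (0.89), Ttc17 (0.88) and Trappc3 (0.87), for Gadd45g Slc7a6os (0.85), Mrps25 (0.84) and Kazald1 (0.79), and for Ddit3 (1443897_at) St18 (0.95), Taf1d (0.91) and Erbin (0.87).

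Cdkn1a and Gadd45b correlated at 0.68 to 0.75 over the 18 arrays and at 0.14 to 0.43 without TAA day 7 replicate 1. Gadd45g correlated with Ddit3 1443897_at at 0.58 (Spearman's rho 0.55), and Ddit4 did at 0.54 (rho 0.34). The Ddit3 probe sets correlated with each other at 0.29 (rho 0.54). Gadd45a correlated with Gadd45b 1449773_s_at at 0.46 (0.62 without TAA day 7 replicate 1), and with Ddit3 1417516_at at -0.50 (Spearman's rho -0.23). On TAA day 30 replicate 2 Gadd45a was at its highest (1.79) and Ddit3 1417516_at at its lowest (-0.86).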

How the data were processed

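Retinal RNA of 18 samples was measured on Affymetrix arrays. Per the labels' protocols, RNeasy (Qiagen) extracts of total RNA went through the two-cycle labelling procedure. Per the submitters' processing notes the authors used RMA; its version and settings are not given in the sources used here. The deposited values were taken as log2, from RMA's convention, and are centred: 45101 of 45101 probe sets have a median within 1e-06 of 0 over the arrays. Depth has no meaning here, and signal over background is unknown.

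Of the 45101 probe sets, 34945 name 1 gene in the platform annotation and were used; 932 name several genes, 9160 are unnamed here and 64 are controls. Groups, replicate numbers and days came from the sample titles. The fit (limma 3.58.1, R 4.3.3) gave each of the 6 groups a mean and used all 18 arrays at once, with 12 residual and 5.30 prior degrees of freedom, default moderation, two-sided tests and Benjamini-Hochberg adjustment over the 34945 within each of 11 comparisons (threshold 0.05). P-values measure the spread between these samples only. The fit was tested on simulated data. No filter on level was possible.

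All 10 member probe sets are named. From each pathway list, the members that passed or else up to 2 members of smallest unadjusted p were eligible to be named in each drug comparison, and some of these are given. The genes named as passing between days in DEX were chosen after their values were seen. For a gene with several probe sets (9010 genes), that of highest interquartile range stood for it in the lists. The members and lists were chosen with earlier results of these data known, and lists of related genes and of other cell types held 184 distinct genes, of which 173 were measured. The lists were p53 response, integrated and ER stress response, CDK inhibitors and G1 cyclins, GADD45 partners and stress kinases, mTOR pathway around Ddit4, reactive gliosis, crystallins, pigment epithelium, microglia and leukocytes, rods and Müller glia. Promoter windows come from RefSeq (GRCm38.p6), with all 6 genes matched, and only the 250 bases before each start were searched.

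By the correlation of their deviations, same-numbered replicates were over 0.1 in 16 of 45 pairs. In 1 of 15 pairs of groups, DEX and BSS at day 30, every such pair was over 0.1 (0.107 to 0.257). That pair of groups was picked out after all 15 were compared, so the numbers are not shown to pair the samples. The fits reported pair no arrays, and the replicate block was tried as an alternative. The alternatives tried were the probe sets tested, a filter on spread, the arrays in the fit, array weights, quantile normalization, median centring, robust moderation, a replicate block, each array left out in turn and, added after the data were seen, the 2 arrays of widest spread left out together.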

Additional observations from a re-analysis of the deposited data

How the results depend on the processing

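None of the 10 probe sets passed in the fits reported, and under most alternatives the count stayed at 0. With array weights, 2 passed for DEX against BSS at day 30 (Ddit4 at 1.14 and Gadd45a at 0.94), 3 for DEX at day 30 against day 7 (Ddit4 at 1.49, Ddit3 at 0.35 and 0.50) and 1 for the change of the DEX effect (Ddit4 at 1.75), where 14.9%, 21% and 9.47% of all probe sets passed. The weights ran from 0.18 on TAA day 30 replicate 2 to 4.27 on TAA day 7 replicate 3. With each array left out in turn, the count for DEX at day 30 against day 7 ranged from 0 to 1. Of the 49 differences larger than their standard error, 7 values of 6 differences turned their sign under 442 alternative values other than leaving out 1 array. With array weights these were Gadd45b 1449773_s_at for DEX against TAA at day 7 (0.0124) and, for TAA at day 30 against day 7, Cdkn1a 1421679_a_at (0.0358), Gadd45b 1420197_at (0.00044) and Ddit3 1417516_at (0.0527). With the 2 arrays of widest spread left out, Ddit3 1417516_at stood at 0.0305 for TAA against BSS at day 30, 0.18 for TAA at day 30 against day 7 and 0.0226 for the change of the TAA effect. With each array left out in turn, 5 differences turned. Cdkn1a 1421679_a_at ranged from -1.17 to 0.29 for TAA at day 30 against day 7 and from -1.26 to 0.20 for the change of the TAA effect, and Gadd45b 1450971_at from -0.97 to 0.16 for TAA at day 30 against day 7. Ddit3 1417516_at ranged from -0.50 to 0.0305 for TAA against BSS at day 30 and from -0.39 to 0.14 for TAA at day 30 against day 7. The cause was not tested. Of the 61 differences not larger than their standard error, 37 turned when some array was left out.

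With a replicate block, 0 of the 110 differences turned or passed, and 16 had an unadjusted p under 0.05. Without the block 13 did, where 3.41% to 18.7% of all probe sets did by comparison. For same-numbered replicates the correlation of deviations had a median of 0.0461, from -0.239 to 0.487. Of 47 differences of pathway and gliosis genes examined, none turned in 725 alternative values. A call was lost in 27 of these values and gained in 21 of them. The lost calls are those of Cdk4, Sars, Gfap and Stat3 for DEX at day 30 against day 7, with 1 lost under the replicate block (Sars, adjusted p = 0.0502). The gained calls came with array weights (13), without DEX day 30 replicate 3 (7) and with only the compared arrays (1).

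Counts over all probe sets moved more. For DEX at day 30 against day 7, 700 passed, 1 with only the compared arrays, 2590 without DEX day 30 replicate 3 and 7323 with array weights. Array weights also gave 55 (DEX) and 83 (TAA) against BSS at day 7, where the fits reported gave 0 and 1, 1172 for DEX against TAA at day 7 against 0, 5200 for DEX against BSS at day 30 against 0, 4356 for DEX against TAA at day 30 against 0, 104 for TAA at day 30 against day 7 against 0, 658 for BSS at day 30 against day 7 against 5, 3311 for the change of the DEX effect against 0 and 19 for that of TAA against 0. Without DEX day 30 replicate 3, 1856 passed for DEX against BSS and 2798 for DEX against TAA at day 30. The 4 probe sets that do not stand for their gene have no value with 1 probe set per gene, and 2 of the 10 have none in the upper spread of all probe sets.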

Other observations

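TAA day 7 replicate 1, the array of highest Cdkn1a and Gadd45b, also had Selenbp1 at 4.83, against at most 1.43 on any other array, and Fkbp5, a co-chaperone gene known to be induced by glucocorticoids, at 1.92, against at most 0.46 elsewhere. Fam107a, a stress-inducible gene, stood at 1.82 there and at most 0.84 elsewhere. Its mean over 13 microglia and leukocyte genes was -0.41, and over 11 crystallin genes 1.13. The crystallin mean was -1.81 on replicate 2 and -0.04 on replicate 3 of the same group, against 0.20, -0.39 and 0.00 on the BSS arrays at day 7. Over all groups the crystallin mean ran from -1.81 to 4.19. The pigment epithelium mean was -0.39, 0.06 and -0.21 on the TAA arrays at day 7, against 0.31, 0.17 and 0.22 on BSS arrays. The Müller glia mean was -0.09, 0.48 and -0.04 on those TAA arrays, against 0.05, -0.16 and -0.09 on BSS arrays.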
